A study of Mus musculus with 24 samples.

Results

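Glycolysis and its triose phosphate branches were followed through 31 mouse genes, chosen by symbol as the enzymes and sugar transporters of the pathway from which methylglyoxal forms. A probe named 27 of the 31, among 16593 genes named on the array, and each gene was read by its probe with the highest mean over all arrays. Gpi1, Pfkfb1, Eno1 and Ldhb were not analysed here. The study measured total RNA of Glo1+/- and wild-type (WT) mice on 24 Illumina bead arrays, with 3 libraries per genotype from each of gonadal adipose tissue, aorta, liver and kidney. The Glo1+/- mice were heterozygous knockouts for Glo1 from a re-derived line on the C57BL/6J background. The WT mice were of the same strain, and the labels give all animals as 36 weeks old, female and fed standard chow. The labels number the libraries of a group but do not say that each came from a separate animal, so the p-values measure the spread between these libraries.

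Glycolysis splits glucose into pyruvate. Transporters bring the sugar in, hexokinases phosphorylate it, phosphofructokinase commits it, aldolase cleaves the resulting bisphosphate, and triose phosphate isomerase interconverts the products dihydroxyacetone phosphate and glyceraldehyde 3-phosphate. Both triose phosphates lose phosphate spontaneously to give methylglyoxal, a reactive dicarbonyl that glyoxalase 1, the product of Glo1, detoxifies with glutathione. Liver and kidney also run the pathway backwards to make glucose, while adipose tissue draws glycerol 3-phosphate from it for triglyceride synthesis.

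Values are the deposited levels on a log2 scale that runs from 7.96 to 15.38 with a floor near 8, and the median probe of a tissue lay between 8.22 and 8.25. A gene is described as measured in a tissue where its mean exceeded that median, which held for 25 of 27 genes in adipose tissue, 23 in liver, 24 in kidney and 23 in aorta. The scale may be a variance-stabilised one, so differences of dim probes can be understated. Levels of different genes are not set against each other, because each is read by its own probe.

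The label check gave Glo1 levels of 13.23, 12.90 and 13.15 in Glo1+/- livers, against 13.91, 14.16 and 13.85 in WT livers, a difference of -0.88 ± 0.11 (limma SE, adjusted p = 0.00313). In kidney the difference was -0.88 ± 0.15 (limma adjusted p = 0.0223). It was -0.90 ± 0.18 in adipose tissue (limma adjusted p = 0.239), where the groups did not overlap, and -0.63 ± 0.37 in aorta (limma adjusted p = 0.948), where they did. Xist lay between 8.10 and 8.25 and the Y-linked Eif2s3y between 10.33 and 11.28 in all 24 libraries, which goes against the label female.

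Several libraries carried markers of other tissues. The aortas other than Glo1+/- aorta 3 expressed Ucp1, the uncoupling protein of brown fat, at 14.57 to 14.82, and Glo1+/- aorta 3 had it at 8.14. That library had the smooth muscle myosin Myh11 at 9.13, against 11.12 to 12.15 in the 5 others, and the adipocyte hormone Lep at 14.73, within the 14.38 to 15.07 of the adipose libraries. The heart muscle list, with 6 of 7 genes measured by a probe, had a mean of 8.64 in Glo1+/- aorta 3 and 9.79 in WT aorta 2, against 11.90 to 12.22 in the other 4. WT aorta 2 had a skeletal muscle mean of 11.82 and WT aorta 3 a thymocyte mean of 10.12. In adipose tissue the hepatocyte list, with 15 of 15 genes on the array, averaged 10.63, 9.74 and 8.96 in Glo1+/- libraries and 11.87, 11.64 and 10.01 in WT libraries. The kidney proximal tubule list, with 8 of 10 genes on the array, averaged 10.78, 8.13 and 8.60 in Glo1+/- and 10.05, 8.57 and 8.11 in WT adipose libraries. Glo1+/- adipose 3 also had an epididymis mean of 11.62. Results that rest on these libraries are given with and without them where stated. In such bulk RNA, fewer cells of a type and less RNA per cell cannot be told apart.

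Levels differed between tissues for nearly every gene. Of the 27 genes, 26 differed between the 4 tissues in an F test over all 24 arrays with genotype in the fit (limma adjusted p under 0.05), and 54.9% of all probes did. Pgk1, phosphoglycerate kinase, was the exception (limma adjusted p = 0.378), with tissue means of 8.26 to 8.32 close to the floor. All adipose arrays were on slide 1 and all aorta arrays on slide 3, and with slide as a fixed block 22 of the 27 genes and 43.5% of all probes were called. The highest mean lay in aorta for 13 genes, in kidney for 6, in liver for 4 and in adipose tissue for 4. Ordering each gene's tissues gave 81 neighbouring pairs, of which 40 differed in limma's test of the pair and 41 did not. The standard error is pooled over all groups, Glo1+/- aorta 3 included, so a pair not called can still separate. For Pfkl in aorta against adipose tissue it was 0.28, and 0.07 without that library. Pfkl was 11.38 to 11.65 in adipose tissue and 10.92 to 11.35 in kidney, a pair not called (limma adjusted p = 0.334). The step below the highest tissue was called in 19 genes and not in 8, these being Hk1, Hk3, Pfkfb3, Gapdh, Pgk1, Pgam2, Eno2 and Khk. Highest and lowest tissue lay over 3 log2 units apart in 7 genes, under 0.5 in 6 and between these bounds in 14.

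**Figure D1:**
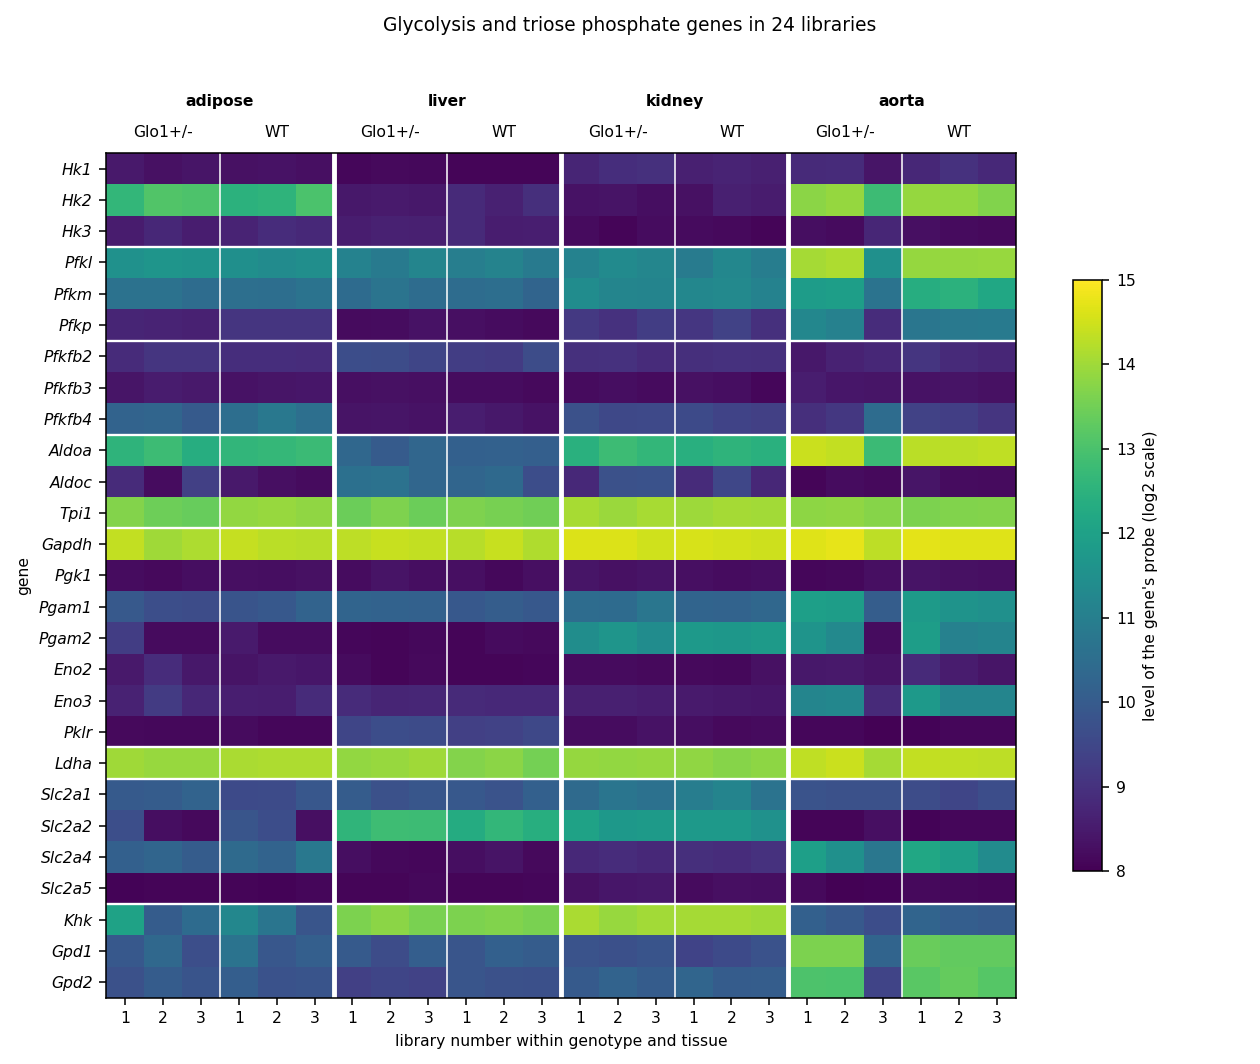
Level of each of the 27 genes (rows, ordered by role along the pathway) in each of the 24 libraries (columns, by tissue and genotype), as colour on the log2 scale. Hk2, Slc2a2, Khk and Pgam2 change colour with the tissue, Gapdh and Ldha stay bright in all 24, and Glo1+/- aorta 3 departs from its tissue at Gpd2, with 9.45 against 13.02 to 13.34 in the other 5 aortas.

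The promoters of 4 genes with such a wide spread are shown beside that of Tpi1, whose tissue means span 0.50, so that the sequence before a tissue-restricted gene can be read against that before a broadly expressed one. Each runs from 250 bases before the annotated start to 50 after it, in the direction of transcription, from RefSeq on GRCm38.p6. Capitals mark any match, on either strand, to the TATA box TATAAA, the E-box CACGTG, the hypoxia response core ACGTG, the CCAAT box or the GC box GGGCGG. The E-box contains the hypoxia response core.
Hk2 (chr6:82774405-82774704, minus strand): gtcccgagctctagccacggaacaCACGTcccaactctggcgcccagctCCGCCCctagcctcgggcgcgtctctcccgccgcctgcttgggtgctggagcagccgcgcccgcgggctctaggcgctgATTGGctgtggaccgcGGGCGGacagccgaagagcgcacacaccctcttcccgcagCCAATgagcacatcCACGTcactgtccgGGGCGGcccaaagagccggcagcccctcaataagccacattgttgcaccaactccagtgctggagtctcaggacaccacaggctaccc
Pgam2 (chr11:5803747-5804046, minus strand): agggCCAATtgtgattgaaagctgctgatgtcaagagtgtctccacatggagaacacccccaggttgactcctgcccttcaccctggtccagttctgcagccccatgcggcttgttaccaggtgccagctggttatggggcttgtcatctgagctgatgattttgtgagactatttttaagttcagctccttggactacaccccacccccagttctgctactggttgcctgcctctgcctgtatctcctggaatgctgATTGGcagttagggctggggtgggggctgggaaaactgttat
Slc2a2 (chr3:28697653-28697952, plus strand): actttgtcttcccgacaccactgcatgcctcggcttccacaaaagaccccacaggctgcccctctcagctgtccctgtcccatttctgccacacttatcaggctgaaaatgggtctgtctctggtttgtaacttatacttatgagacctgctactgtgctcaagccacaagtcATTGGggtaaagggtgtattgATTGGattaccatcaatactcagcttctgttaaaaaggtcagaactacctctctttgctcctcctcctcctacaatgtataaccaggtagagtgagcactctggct
Khk (chr5:30921309-30921608, plus strand): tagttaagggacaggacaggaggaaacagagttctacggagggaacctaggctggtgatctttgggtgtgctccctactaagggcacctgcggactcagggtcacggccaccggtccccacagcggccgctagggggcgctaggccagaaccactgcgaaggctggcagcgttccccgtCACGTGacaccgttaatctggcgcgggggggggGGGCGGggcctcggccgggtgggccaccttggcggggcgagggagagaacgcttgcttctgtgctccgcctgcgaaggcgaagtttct
Tpi1 (chr6:124814109-124814408, minus strand): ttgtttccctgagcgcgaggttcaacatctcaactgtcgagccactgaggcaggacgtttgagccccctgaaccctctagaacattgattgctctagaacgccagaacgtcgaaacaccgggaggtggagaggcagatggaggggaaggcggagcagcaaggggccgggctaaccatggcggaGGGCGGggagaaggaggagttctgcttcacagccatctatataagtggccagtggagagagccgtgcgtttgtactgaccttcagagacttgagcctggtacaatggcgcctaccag

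None of the 5 windows holds the TATA box letters. Those of Hk2, Khk and Tpi1 hold a GC box, those of Hk2, Pgam2 and Slc2a2 a CCAAT box, and that of Khk an E-box. The Hk2 window has 2 hypoxia response cores, 2 CCAAT boxes and 3 GC boxes. RefSeq promoters matched 29 of the 31 genes, with 47 windows in all. Of these, 40.4% held the hypoxia response core, against 19.6% of the 32851 promoters in the table. The GC box was in 46.8% against 35.7%, the E-box in 10.6% against 7.15%, the CCAAT box in 38.3% against 37.4%, and the TATA box in 8.51% against 13.6%. Windows of the same gene can overlap, and counted by gene, 15 of 29 held the hypoxia response core in at least 1 window. These are letter matches and describe the sequence only.

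Among the sugar transporters, Slc2a2 (GLUT2), the low-affinity glucose carrier of hepatocytes and proximal tubule, was highest in liver. Its lowest, median and highest libraries there were 12.32, 12.61 and 12.84, followed by 11.54, 11.76 and 12.03 in kidney. Aorta held it near the floor, at 8.07, 8.11 and 8.28. Liver exceeded kidney by 0.82 ± 0.23 (limma adjusted p = 0.00636) and aorta by 4.46 ± 0.23 (limma adjusted p = 2.87e-13). The aorta mean was below the median of its probes, and against that median, taken per array as the least level read, liver was at least 20.5-fold higher. Adipose libraries split, with 9.67, 8.27 and 8.18 in Glo1+/- and 9.84, 9.65 and 8.29 in WT mice. The 3 adipose libraries above 9 had hepatocyte means of 10.63, 11.87 and 11.64, and the 3 others 9.74, 8.96 and 10.01, so the high values stood in the libraries with the highest hepatocyte means, whose part in them was not tested. Of these 3, Glo1+/- adipose 1 and WT adipose 1 also had the 2 highest proximal tubule means (10.78 and 10.05), whose part was not tested either. Slc2a4 (GLUT4), the insulin-responsive carrier of muscle and fat, ran the other way. It had a lowest, median and highest value of 10.77, 11.72 and 12.17 in aorta and of 10.03, 10.26 and 10.80 in adipose tissue, against 8.14, 8.22 and 8.38 in liver. All 3 of its neighbouring steps were called, aorta over adipose tissue by 1.30 ± 0.15 (limma adjusted p = 4.22e-06). Slc2a1 (GLUT1), the widespread basal carrier, was highest in kidney, with a mean of 10.76 ± 0.27 (SD, n = 6) there and means of 9.66 to 9.92 elsewhere. The fructose carrier Slc2a5 was measured above the median in kidney alone, at a mean of 8.32, with means of 8.09 to 8.13 in the other tissues.

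Hexokinase 2, the insulin-regulated form of muscle and fat, had tissue means that span 5.24. Hk2 had a lowest, median and highest value of 12.81, 13.82 and 13.90 in aorta, the lowest being Glo1+/- aorta 3 and the other 5 beginning at 13.67. Adipose libraries gave 12.49, 12.83 and 13.11, liver 8.45, 8.58 and 8.94, and kidney 8.26, 8.36 and 8.61. The aorta exceeded kidney by 5.24 ± 0.14, which is 37.9-fold (limma adjusted p = 4.29e-17), and no library of aorta or adipose tissue overlapped one of liver or kidney. Liver and kidney did not differ in the test (0.23 ± 0.14, limma adjusted p = 0.264). Hk1, the ubiquitous form, was dim, with means of 8.79 in aorta, 8.75 in kidney, 8.36 in adipose tissue and 8.12 in liver. Hk3, known from myeloid cells, was highest in adipose tissue (8.71) and liver (8.64), and was 8.76 in Glo1+/- aorta 3, against 8.19 to 8.29 in the other aortas.

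The subunits of phosphofructokinase-1, the committed step, were all highest in aorta. Pfkl, the liver-type subunit, averaged 13.57 in aorta, 11.52 in adipose tissue, 11.13 in kidney and 11.04 in liver. The muscle-type Pfkm averaged 11.92, and the platelet-type Pfkp 10.60, in aorta. In Glo1+/- aorta 3 Pfkl, Pfkm and Pfkp were 11.52, 10.68 and 8.88, while the other 5 aortas began at 13.88, 11.88 and 10.75. Those 5 also had the Ucp1 levels given above, and the part of other tissues in these aorta levels was not tested. The 3 genes had their next highest mean in adipose tissue (Pfkl) or kidney (Pfkm and Pfkp), and each top step was called. The bifunctional enzymes that make and remove fructose 2,6-bisphosphate, the activator of phosphofructokinase-1, showed other orders. Pfkfb2, the heart-type form, was highest in liver (9.47 ± 0.19, SD, n = 6). Pfkfb4, the testis-type form, was highest in adipose tissue, with 10.39 ± 0.29 (SD, n = 6), 0.88 above kidney (limma adjusted p = 1.77e-04). Pfkfb3, the inducible form, spanned 0.20 across tissues, with a highest mean of 8.43.

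At the aldolase step the 2 isozymes had opposite orders. Aldoa, the muscle-type aldolase, had a lowest, median and highest value of 12.77, 14.31 and 14.44 in aorta, where the 5 libraries other than Glo1+/- aorta 3 began at 14.27. It had 12.37, 12.64 and 12.80 in adipose tissue, 12.41, 12.49 and 12.79 in kidney, and 10.00, 10.15 and 10.33 in liver. The aorta exceeded liver by 3.90 ± 0.19, which is 14.9-fold (limma adjusted p = 1.02e-13), while adipose tissue and kidney did not differ in the test (0.09 ± 0.19, limma adjusted p = 0.793). Aldoc, the brain-type aldolase, was highest in liver (10.31), ahead of kidney (9.24), adipose tissue (8.57) and aorta (8.23). Tpi1, which interconverts the 2 triose phosphates, was bright in all tissues, with a lowest, median and highest value of 13.96, 14.04 and 14.09 in kidney and 13.42, 13.52 and 13.65 in liver. Kidney exceeded liver by 0.50 ± 0.06 (limma adjusted p = 4.03e-07) and aorta by 0.30 ± 0.06 (limma adjusted p = 2.80e-04). By the other 2 probes of Tpi1, kidney had means of 13.01 and 8.41, aorta 13.01 and 8.78, and liver 12.38 and 8.36. The step of kidney over aorta thus depends on the probe.

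In lower glycolysis, Gapdh, which oxidises glyceraldehyde 3-phosphate, spanned 0.38, with means of 14.62 in aorta, 14.55 in kidney, 14.32 in liver and 14.23 in adipose tissue. Pgam1, the widespread phosphoglycerate mutase, was highest in aorta (11.47), with 10.06 in Glo1+/- aorta 3 and 11.52 to 11.94 in the other aortas. Its muscle-type counterpart Pgam2 was as bright in kidney as in aorta. Kidney had a lowest, median and highest value of 11.41, 11.68 and 11.81, and the 5 aortas other than Glo1+/- aorta 3 ran between 11.07 and 11.91. Liver lay at 8.10, 8.14 and 8.22, and 5 adipose libraries lay at or below 8.50. Kidney over those 5 aortas was not called (limma adjusted p = 0.354), and kidney exceeded liver by 3.49 ± 0.37 (limma adjusted p = 5.91e-08). The liver mean was below the median of its probes, and counted against that median kidney was at least 10.6-fold higher. The adipose library with the highest kidney proximal tubule mean, Glo1+/- adipose 1, had Pgam2 at 9.28. Eno3, the muscle enolase, was highest in aorta, with 11.17 to 11.75 outside Glo1+/- aorta 3 and 8.84 in it. The aortas also had the heart and skeletal muscle means given above. The part of those cells in the aorta levels of Pgam2, Eno3 and the other genes was not tested. Pklr, the liver pyruvate kinase, averaged 9.49 ± 0.12 in liver (SD, n = 6) and 8.24 in kidney, the next tissue (limma adjusted p = 4.10e-16). The neuronal enolase Eno2 had means of 8.13 to 8.51. Ldha, which makes lactate, spanned 0.50, with 14.30 in aorta, 14.04 in adipose tissue, 13.84 in kidney and 13.80 in liver.

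The enzymes that feed or drain the triose phosphates had sharp tissue profiles. Khk, ketohexokinase, starts fructose breakdown towards dihydroxyacetone phosphate. It had a lowest, median and highest value of 13.91, 14.04 and 14.11 in kidney and 13.60, 13.63 and 13.77 in liver, a step that was not called (limma adjusted p = 0.268), and 9.65, 10.05 and 10.25 in aorta. Kidney exceeded aorta by 4.01 ± 0.24, which is 16.1-fold (limma adjusted p = 4.91e-12). Adipose libraries had Khk at 12.02, 10.04 and 10.46 in Glo1+/- and 11.24, 10.73 and 9.85 in WT mice. The library at 12.02 had the highest proximal tubule mean (10.78) and the library at 11.24 the second highest (10.05), and the part of those cells in the Khk level was not tested. Gpd1, the cytosolic enzyme that turns dihydroxyacetone phosphate into glycerol 3-phosphate, and Gpd2, its mitochondrial partner in the glycerol phosphate shuttle, were both highest in aorta. Outside Glo1+/- aorta 3 the aortas had Gpd1 at 13.31 to 13.62 and Gpd2 at 13.02 to 13.34, together with the Ucp1 levels given above. Adipose tissue, liver and kidney had Gpd1 means of 10.11, 9.95 and 9.68. No pair of these 3 tissues was called in Gpd1 or in Gpd2. Every kidney library nevertheless had Gpd2 (9.99 to 10.29) above every liver library (9.33 to 9.85). The step was 0.53 ± 0.38 (limma adjusted p = 0.343), with a standard error pooled over all groups, Glo1+/- aorta 3 included.

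**Figure D2:**
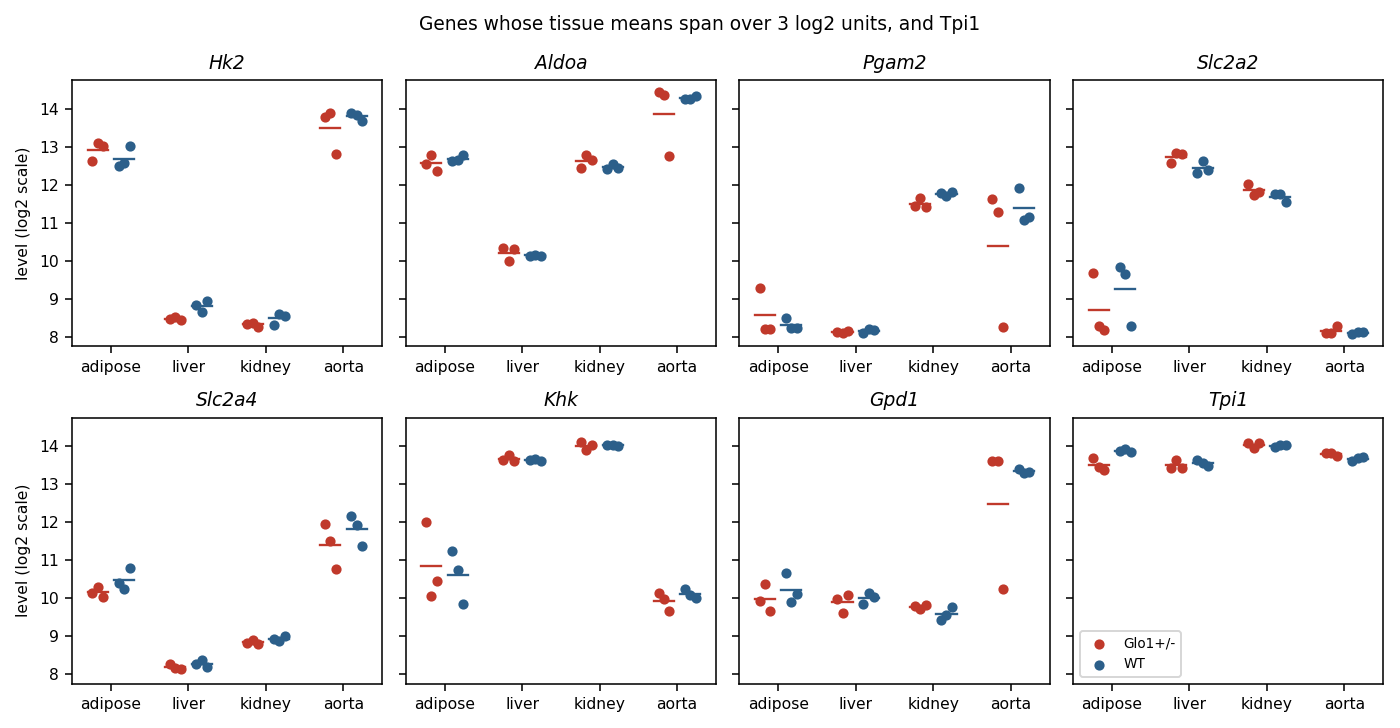
Level (log2 scale) of the 7 genes whose tissue means span over 3 units, and of Tpi1, in every library, with Glo1+/- points left of WT points in each tissue and a bar at each group mean. Hk2 of liver and kidney lies at or below 8.94 and of adipose tissue and aorta at or above 12.49, and the low Glo1+/- aorta point in the Hk2, Aldoa, Pgam2, Slc2a4 and Gpd1 panels is Glo1+/- aorta 3.

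Glo1+/- aorta 3 stood apart from its tissue in most genes of the pathway. Of the 27 genes, 17 were lower and 3 higher in it than in every other aorta, 19 lay nearer to the adipose mean than to the mean of the other 5 aortas, and 20 lay within the range of the adipose libraries. Its level minus the mean of the other 5 aortas was -3.71 for Gpd2, -3.20 for Gpd1, -3.16 for Pgam2, -2.46 for Eno3 and -2.46 for Pfkl, while Tpi1 was at 13.74 against 13.73. Pfkl in this library was 11.52, and its adipose mean was also 11.52.

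**Figure D3:**
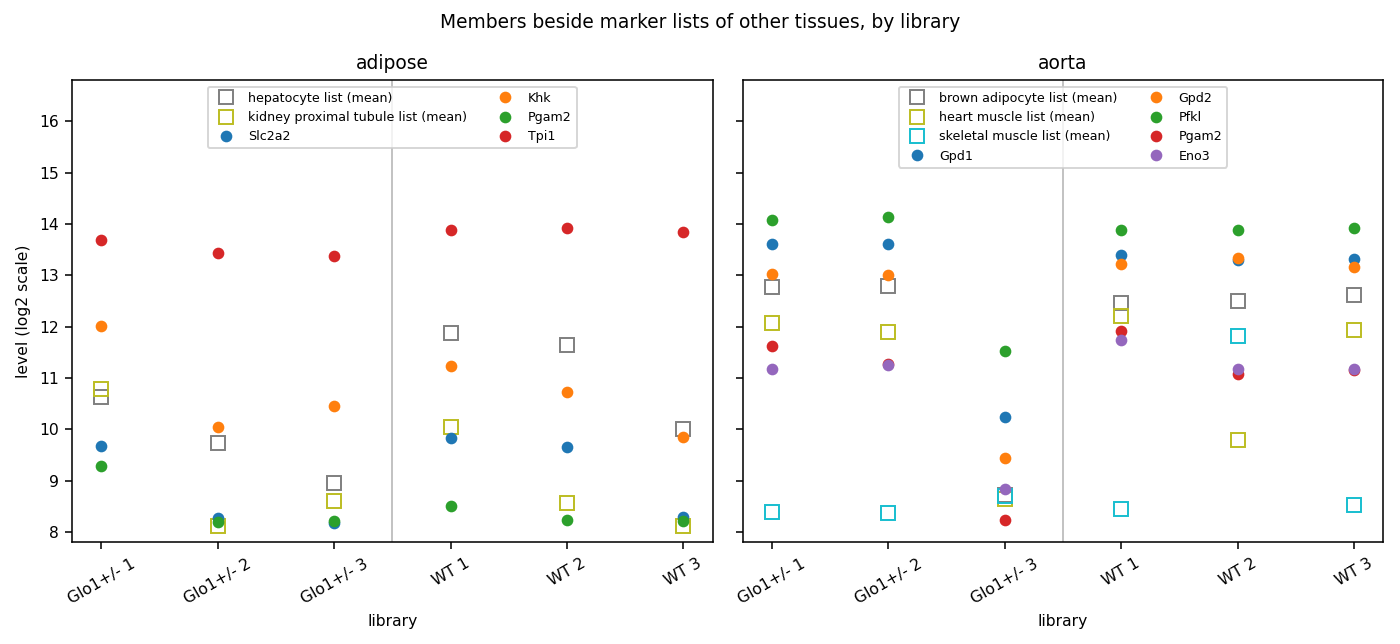
Level (log2 scale) of genes of the pathway (filled circles) and mean level of marker lists (open squares) in each adipose library (left) and aorta library (right), Glo1+/- before WT. In adipose tissue Slc2a2 exceeds 9 in Glo1+/- 1, WT 1 and WT 2, and in aorta the brown adipocyte mean is 8.71 in Glo1+/- 3 and at least 12.45 in the others.

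The main comparison of the study, Glo1+/- against WT, called none of the 27 genes in any tissue at a limma adjusted p under 0.05. Background shares differed by tissue, since 0.00389% of all 25697 probes were called in adipose tissue, 0.658% in liver, 0.381% in kidney and 0% in aorta. At an unadjusted p under 0.05 there were 5 genes in adipose tissue (1 higher and 4 lower in Glo1+/-), 6 in liver (4 higher, 2 lower), 8 in kidney (5 higher, 3 lower) and 2 in aorta (both lower). The same threshold was passed by 11.4%, 11.6%, 9.54% and 3.57% of all probes in these tissues. Differences over the 27 genes had medians of -0.01 in adipose tissue, 0.05 in liver, 0.05 in kidney and -0.16 in aorta, against medians of all probes within 0.01 of 0. The median half-width of a gene's 95% interval was 0.27, 0.20, 0.16 and 0.36 in the 4 tissues, which is the precision 3 libraries per group gave.

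In adipose tissue 7 genes had groups that did not overlap, 2 of them higher and 5 lower in Glo1+/-, beside 17.5% of all probes. Pfkp had 8.73, 8.70 and 8.65 in Glo1+/- and 9.07, 9.08 and 9.08 in WT libraries, a difference of -0.38 ± 0.07 (95% interval -0.54 to -0.22, limma adjusted p = 0.216). Pfkfb4 had 10.22, 10.28 and 9.98 in Glo1+/- and 10.53, 10.79 and 10.57 in WT libraries, a difference of -0.47 ± 0.13 (limma adjusted p = 0.316). All 3 Glo1+/- libraries lay below all 3 WT libraries in both genes. The glucose carrier Slc2a1 lay the other way, with 9.99, 10.02 and 10.22 in Glo1+/- and 9.57, 9.59 and 9.91 in WT libraries (0.39 ± 0.13, limma adjusted p = 0.368). Among the triose phosphate steps, Tpi1 had 13.70, 13.45 and 13.38 in Glo1+/- and 13.88, 13.93 and 13.85 in WT libraries, a difference of -0.38 ± 0.09, or 0.770-fold (limma adjusted p = 0.279). In the fit of all 24 arrays, which estimates the spread over all tissues, this difference of Tpi1 was called (limma adjusted p = 0.0440), beside 0.638% of all probes. Its 3 probes had differences of -0.38, -0.21 and -0.04 in adipose tissue, in the order of their brightness. Aldoa had 12.56, 12.80 and 12.37 in Glo1+/- and 12.62, 12.66 and 12.78 in WT libraries. Gapdh had 14.35, 14.01 and 14.13 in Glo1+/- and 14.39, 14.28 and 14.24 in WT libraries. Gpd1 had 9.92, 10.37 and 9.67 in Glo1+/- and 10.66, 9.89 and 10.12 in WT libraries. The groups overlapped in these 3 triose phosphate genes. The hepatocyte means given above were lower in Glo1+/- than in WT adipose libraries of the same number. The endothelium list, with 8 of 8 genes on the array, averaged 10.61, 10.84 and 10.52 in Glo1+/- and 10.24, 10.51 and 10.42 in WT adipose libraries, which did not overlap. The part of either list in these differences was not tested.

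In liver 6 genes had groups that did not overlap, 4 higher and 2 lower in Glo1+/-, beside 17.6% of all probes. Gpd2 had 9.33, 9.47 and 9.38 in Glo1+/- and 9.85, 9.72 and 9.71 in WT libraries, a difference of -0.37 ± 0.10 (95% interval -0.58 to -0.16, limma adjusted p = 0.123), with every Glo1+/- library below every WT library. Without WT liver 3 it was called (-0.40, limma adjusted p = 0.0292), beside 2.7% of all probes. Both remaining WT livers were then on slide 1 and all 3 Glo1+/- livers on slide 2, so genotype and slide cannot be told apart in that value. On slide 2 alone, against WT liver 3, the difference was -0.32 (limma adjusted p = 0.126). Hk2, at the low level it had in liver, was 8.46, 8.52 and 8.45 in Glo1+/- and 8.82, 8.64 and 8.94 in WT libraries (-0.33 ± 0.10, limma adjusted p = 0.174). Ldha was 13.86, 13.92 and 14.01 in Glo1+/- and 13.71, 13.79 and 13.53 in WT libraries (0.25 ± 0.09, limma adjusted p = 0.279). WT livers 1 and 2 were on another slide than the other 4 liver arrays. With slide as a fixed block 3 genes were called in liver, beside 5.37% of all probes. They were Hk2 (-0.47), Ldha (0.40) and Aldoc (0.86), with limma adjusted p of 0.0286, 0.0309 and 0.00219. These values rest on WT liver 3 as the single WT library of that slide, assumed to vary as the others do. Aldoc had 10.58, 10.65 and 10.30 in Glo1+/- and 10.28, 10.40 and 9.65 in WT livers, so WT liver 3 was its lowest. Slc2a2 was 12.58, 12.84 and 12.81 in Glo1+/- and 12.32, 12.64 and 12.39 in WT livers by its brightest probe (0.30 ± 0.11, limma adjusted p = 0.303). Its other 2 probes had differences of 0.73 each, with limma adjusted p of 0.0334 and 0.0641, so the call depends on the probe. Aldoa had 10.33, 10.00 and 10.31 in Glo1+/- and 10.14, 10.16 and 10.13 in WT libraries. Tpi1 had 13.42, 13.65 and 13.43 in Glo1+/- and 13.65, 13.57 and 13.48 in WT libraries. The groups overlapped in Aldoa and in Tpi1. Gapdh had 14.30, 14.42 and 14.35 in Glo1+/- and 14.24, 14.42 and 14.17 in WT libraries. Gpd1 had 9.98, 9.62 and 10.08 in Glo1+/- and 9.85, 10.14 and 10.04 in WT libraries. They overlapped in Gapdh and Gpd1 as well. The endothelium list averaged 9.11, 9.16 and 9.09 in Glo1+/- and 9.29, 9.35 and 9.55 in WT livers. The contractile smooth muscle list, with 8 of 8 genes on the array, averaged 8.63, 8.67 and 8.69 in Glo1+/- and 8.86, 8.83 and 9.01 in WT livers. Both lists were lower in every Glo1+/- liver than in every WT liver, with WT liver 3 the highest, and their part in the liver differences was not tested.

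In kidney 7 genes had groups that did not overlap, 6 higher and 1 lower in Glo1+/-, beside 15.4% of all probes. Pgam1 was 10.48, 10.45 and 10.74 in Glo1+/- and 10.27, 10.24 and 10.34 in WT libraries (0.27 ± 0.10, limma adjusted p = 0.372). Its muscle-type counterpart Pgam2 lay the other way, with 11.44, 11.64 and 11.41 in Glo1+/- and 11.78, 11.71 and 11.81 in WT libraries (-0.27 ± 0.09, limma adjusted p = 0.334). Hk1 was 8.73, 8.91 and 8.96 in Glo1+/- and 8.61, 8.70 and 8.62 in WT libraries (0.23 ± 0.08, limma adjusted p = 0.331), the smallest adjusted p of the 27 genes in kidney. Each of these 3 genes separated the 6 libraries by genotype without passing the test. Aldoa had 12.44, 12.79 and 12.65 in Glo1+/- and 12.41, 12.54 and 12.43 in WT libraries. Tpi1 had 14.09, 13.96 and 14.09 in Glo1+/- and 13.98, 14.05 and 14.04 in WT libraries. The groups overlapped in Aldoa and in Tpi1. Gapdh had 14.62, 14.62 and 14.48 in Glo1+/- and 14.58, 14.51 and 14.46 in WT libraries. Gpd1 had 9.78, 9.72 and 9.82 in Glo1+/- and 9.42, 9.57 and 9.77 in WT libraries. They overlapped in Gapdh and Gpd1 as well. Glo1+/- kidneys 2 and 3 were on another slide than the other 4 kidney arrays. On slide 2 alone, with Glo1+/- kidney 1 as the single Glo1+/- library, the differences were 0.20 for Pgam1, -0.33 for Pgam2 and 0.09 for Hk1. With slide as a block 0 genes were called, beside 0.0778% (fixed block) or 0.401% (random block) of all probes. WT kidney 1 had a hepatocyte mean of 10.28, against 9.22 to 9.49 in the 5 others. WT kidney 2 had a brown adipocyte mean of 9.44, with 8 of 8 genes on the array, against 8.66 to 8.88. WT kidney 3 had an adipocyte mean of 9.73, with 7 of 8 genes on the array, against 8.97 to 9.33. The smooth muscle list averaged 9.24, 9.43 and 9.37 in Glo1+/- and 9.44, 9.68 and 9.48 in WT kidneys, lower in every Glo1+/- library. The part of these cells in the kidney differences was not tested.

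In aorta 6 genes had groups that did not overlap, 3 higher and 3 lower in Glo1+/-, beside 10.1% of all probes. Gpd2 was 13.03, 13.02 and 9.45 in Glo1+/- and 13.22, 13.34 and 13.15 in WT libraries, a difference of -1.41 ± 0.87 (limma adjusted p = 0.948) that became -0.21 without Glo1+/- aorta 3. Pfkm was 11.88, 11.92 and 10.68 in Glo1+/- and 12.36, 12.49 and 12.17 in WT libraries (-0.85 ± 0.33, limma adjusted p = 0.948), and -0.44 without that library (limma adjusted p = 0.572). Every Glo1+/- library was below every WT library in both genes. Slc2a1 was 9.78, 9.73 and 9.73 in Glo1+/- and 9.63, 9.45 and 9.66 in WT libraries (0.17 ± 0.13, limma adjusted p = 0.948). Tpi1 was 13.82, 13.83 and 13.74 in Glo1+/- and 13.61, 13.68 and 13.71 in WT libraries (0.12 ± 0.13, limma adjusted p = 0.948). Aldoa had 14.44, 14.36 and 12.77 in Glo1+/- and 14.27, 14.27 and 14.34 in WT libraries. Gapdh had 14.66, 14.73 and 14.30 in Glo1+/- and 14.71, 14.65 and 14.66 in WT libraries. Gpd1 had 13.62, 13.61 and 10.25 in Glo1+/- and 13.39, 13.31 and 13.32 in WT libraries. The groups overlapped in these 3 triose phosphate genes. Of the 27 genes 21 were lower in Glo1+/- than in WT aorta. Without Glo1+/- aorta 3, 14 were lower and 13 higher, and the median difference was -0.0014 in place of -0.16.

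**Figure D4:**
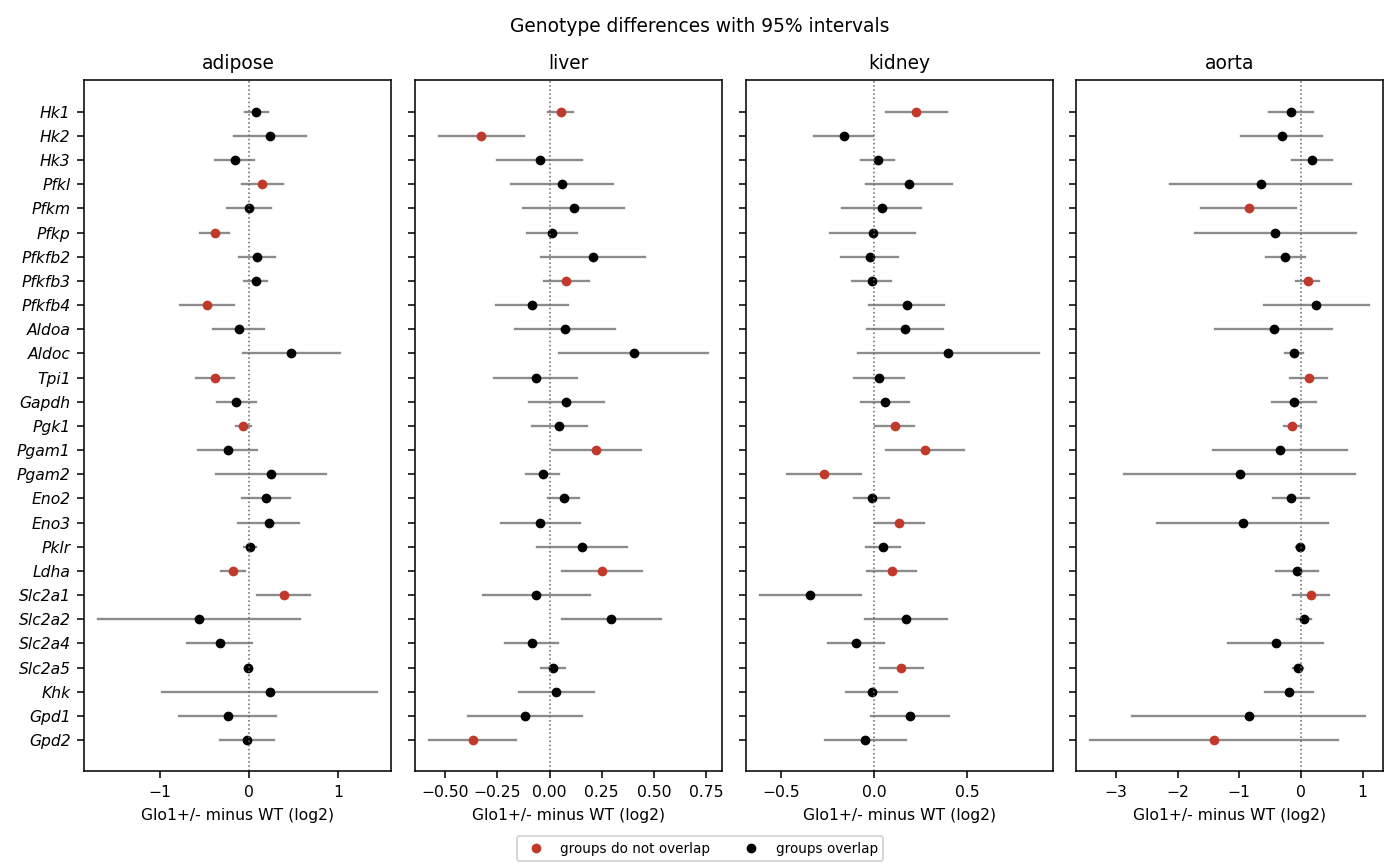
Glo1+/- minus WT difference (log2) of each gene with its 95% interval from limma, by tissue, on a scale of its own in each panel. Red points mark genes whose 3 Glo1+/- libraries all lie on one side of the 3 WT libraries, and the wide aorta intervals, with a half-width of 0.36 in the median, stand beside the low Glo1+/- library.

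Averaged over the 4 tissues, 0 of the 27 genes were called for genotype, beside 0.269% of all probes. Unadjusted, 3 genes passed, beside 9.95% of all probes. They were Aldoc (0.29 ± 0.13, limma adjusted p = 0.459), Slc2a4 (-0.23 ± 0.11, limma adjusted p = 0.490) and Pfkfb3 (0.06 ± 0.03, limma adjusted p = 0.418). Slc2a4 was lower on average in Glo1+/- in 4 of 4 tissues, and its average was -0.28 and was called (limma adjusted p = 0.0304), beside 2.14% of all probes, without 7 libraries with markers of another tissue. These were Glo1+/- adipose 1 and 3, WT adipose 1 and 2, Glo1+/- aorta 3 and WT aortas 2 and 3, chosen after seeing the data. Libraries that were kept carried such markers too, among them the other aortas with Ucp1, Glo1+/- adipose 2 and WT adipose 3 with hepatocyte means of 9.74 and 10.01, and the WT kidneys. The selection left a single adipose library per genotype and a single WT aorta. Among those kept, WT adipose 3 (10.80) and WT aorta 1 (12.17) had the highest Slc2a4 of their tissues.

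The test of whether the genotype difference itself varied between tissues called 0 of the 27 genes, beside 0.28% of all probes. Unadjusted, 7 genes passed, beside 10.9% of all probes, led by Tpi1 (limma adjusted p = 0.189), Slc2a5 (0.226) and Slc2a1 (0.255). Slc2a1 had differences of 0.39 in adipose tissue, -0.06 in liver, -0.35 in kidney and 0.17 in aorta. Tpi1 had -0.38, -0.07, 0.03 and 0.12 in the same order. With array weights, which lower the influence of libraries far from their group, 5 genes and 2.73% of all probes were called, the genes being Tpi1, Pgk1, Ldha, Slc2a1 and Slc2a5.

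Of the genes around the pathway, Glo1 and Gys2 were called for genotype. Of 95 listed genes of other glycolytic steps, glycogen, pentose phosphate, pyruvate, transport, side-route, methylglyoxal and transcriptional control, 83 had a probe. In adipose tissue and aorta 0 were called, in liver 1 higher and 1 lower, and in kidney 1 lower, Glo1 being the lower one in both. The shares of all probes called were 0.00389% in adipose tissue, 0% in aorta, 0.658% in liver and 0.381% in kidney. The liver gene that rose was Gys2, the liver glycogen synthase, with 10.65, 10.80 and 10.75 in Glo1+/- and 10.04, 10.33 and 9.98 in WT livers (0.62 ± 0.11, limma adjusted p = 0.0257). Its groups did not overlap. Pkm, the pyruvate kinase of most tissues other than liver, was 8.89, 9.13 and 9.15 in Glo1+/- and 9.35, 9.40 and 9.69 in WT livers (-0.42 ± 0.11, limma adjusted p = 0.136). Mlxipl, which encodes the carbohydrate-sensing factor ChREBP, was 11.43, 11.17 and 11.16 in Glo1+/- and 11.96, 12.02 and 11.38 in WT livers (-0.53 ± 0.15, limma adjusted p = 0.157). Pdk4, which restrains pyruvate oxidation, differed by 0.82 ± 0.22 in adipose tissue (limma adjusted p = 0.300), -0.55 ± 0.17 in liver (limma adjusted p = 0.190) and 0.65 ± 0.22 in kidney (limma adjusted p = 0.333).

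Of the 11 genes with several probes, 10 had the same highest tissue by every probe, Tpi1 being the exception. That count includes probes near the floor in every tissue, whose highest tissue carries little weight. Such probes had tissue means of 8.09 to 8.10 for Pklr, 8.07 to 8.11 for Pfkp, 8.12 to 8.15 for Pfkfb2 and 8.10 to 8.18 for Pfkfb4. In 28 of the 44 gene and tissue pairs of the 11 genes all probes gave the genotype difference the same sign, and in 16 they did not. Across these 27 probes 1 was called in any tissue, the Slc2a2 probe in liver named above.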

How the data were processed

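Total RNA from 24 tissue samples was hybridised to Illumina bead arrays. The deposited values are on a log2 or log2-like scale and were made by the authors with lumi 2.32.0, per the submitters' processing notes. The sources used here do not state their background correction, transformation or normalization, and detection p-values were not used. Of 25697 probes, 23978 had 1 gene in the platform annotation, 0 had several and 1719 had none, and 23962 gene IDs were found in RefSeq's table for GRCm38.p6. No probe was filtered out. With 3 arrays in a group, array number limits the precision.

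Each tissue was fitted on its 6 arrays with limma 3.58.1 (R 4.3.3, lmFit, eBayes with trend, 2-sided), and 1 model of the 8 groups on all 24 arrays gave the genotype effect averaged over tissues, its difference between tissues and the tissue differences. Adjusted p-values are Benjamini-Hochberg over all probes, and a probe is called under 0.05. An exact test of 3 against 3 cannot go below 0.1, so none was used for single genes. Errors are limma standard errors for differences and SD for means. The scripts were tested on simulated data.

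The genes, marker lists and pathway lists were chosen with earlier results of these data known. Values per library are given for genes called, for the 3 measured genes per tissue with the largest difference among those whose groups did not overlap, and for Aldoa, Tpi1, Gapdh and Gpd1. Wide and narrow tissue spreads are those over 3 and under 0.5 log2 units. Other genes were named for context after their values were seen. Alternatives were other probe rules, normalizations, filters, fits and blocks, and leaving out each library. Deviations of adipose libraries of the same number correlated with r of 0.667, 0.170 and 0.336 across probes. For number 2 the library of the same number was not the best match, so whether the numbers pair the adipose libraries is not settled. In each other tissue 1 or more pairs lay at or below 0.1.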

Additional observations from a re-analysis of the deposited data

Results flagged for a closer look

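In 3 genes every Glo1+/- library lay on one side of WT in one tissue and on the opposite side in another. Tpi1 was higher in Glo1+/- aorta by 0.12 and lower in Glo1+/- adipose tissue (-0.38), a gap of 0.50. Its other 2 probes, in the order of their brightness, had differences of 0.0021 and -0.02 in aorta and of -0.21 and -0.04 in adipose tissue. Pgk1, whose probe is near the floor, was higher in Glo1+/- kidney by 0.11 and lower in Glo1+/- adipose tissue (-0.06) and Glo1+/- aorta (-0.14), gaps of 0.17 and 0.25. Ldha was higher in Glo1+/- liver by 0.25 and in Glo1+/- kidney by 0.09 and lower in Glo1+/- adipose tissue (-0.18), gaps of 0.43 and 0.27. These pairwise gaps were not tested one by one. The F test over all 4 tissues gave limma adjusted p of 0.189 for Tpi1, 0.274 for Pgk1 and 0.300 for Ldha. Non-overlap was seen in 10.1% to 17.6% of all probes in single tissues.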

How the results depend on the processing

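Counts of genes called for genotype were 0 in kidney and aorta under every alternative run, beside at most 0.537% and 0.07% of all probes tested. In adipose tissue 1 was called in the fit of all 24 arrays (Tpi1), beside 0.638% of all probes. In liver 1 was called without WT liver 3 (Gpd2, beside 2.7%), where genotype and slide cannot be told apart, and on slide 2 alone Gpd2 was at -0.32 (limma adjusted p = 0.126). With slide as a fixed block 3 were called (Hk2, Aldoc and Ldha, beside 5.37%), and slide 2 alone, which sets 3 Glo1+/- libraries against 1 WT library and gives the same estimates as the block, called the same 3 (beside 6.56%). The average over tissues called 1 gene on liver and kidney arrays alone (Hk2, -0.24, limma adjusted p = 0.0473, beside 1.81%). Without the 7 libraries named above the average of Slc2a4 was -0.28. That last alternative was added after seeing the data, and it left a single adipose library per genotype and a single WT aorta. The difference between tissues called 5 genes with array weights (beside 2.73%) and 1 without Glo1+/- aorta 3 (Pfkp, limma adjusted p = 0.0433, beside 1.25%). Its calls without those 7 libraries are not counted here, because they rest on groups with a single library. Leaving out single libraries called 0 to 0 genes for adipose tissue, 0 to 1 for liver, 0 to 0 for kidney, 0 to 0 for aorta, 0 to 0 for the average, 0 to 1 for the difference between tissues and 26 to 26 for tissue. The causes were not tested.

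With the replicate number as a block, 0 genes were called in each tissue, 0 for the average and the difference between tissues, and 26 for tissue. Of all probes, that block called 0.191% in adipose tissue, 1.12% in liver, 0.288% in kidney and 0% in aorta. It called 0.28% for the average, 0.276% for the difference between tissues and 54.7% for tissue. In adipose tissue that block called 49 probes in all, against 1 without it.

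Signs turned for Gpd1 in adipose tissue without both libraries numbered 1 (0.0118), for Tpi1 in liver with the mean of all its probes (0.0696) and with the slide block or slide 2 alone (0.0193 each), for Gpd1 in liver without Glo1+/- liver 2 (0.0186, and down to -0.21 without other libraries), and for Aldoa in kidney with the slide block or slide 2 alone (-0.0248 each). Without Glo1+/- aorta 3 they turned in aorta for Aldoa (0.10), Gapdh (0.0205) and Gpd1 (0.28), whose lowest values without another library were -0.73, -0.20 and -1.41. Signal near the floor limits Pgk1, Slc2a5, Hk1, Eno2 and Pfkfb3.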
